A study of Homo sapiens with 16 samples.

Results

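The nuclear-encoded subunits of the mitochondrial respiratory chain and of the ATP synthase, with cytochrome c, were followed in SNU719 and YCC10, established gastric cancer cell lines, after MYB or TCF7 had been lowered. Members were taken by gene symbol: the NDUFA, NDUFB, NDUFC, NDUFS and NDUFV series, SDHA to SDHD, symbols starting with UQCR, COX4 to COX8 followed by at most 1 letter from A to C and at most a final 1 or 2 (which takes no COX4 gene here), symbols starting with ATP5F1, ATP5M or ATP5P, and CYC1 and CYCS. Of 28167 symbols in the table, 86 matched and 81 of them averaged 1 FPKM or more (RNA fragments counted on a transcript, divided by its length in kilobases and by the size of the library) over the 16 libraries. The 5 that matched below that level were COX6A2, COX6B2, COX7A1, COX7B2 and COX8C. The 81 comprised 36 subunits of complex I, 4 of complex II, 9 of complex III, 10 of complex IV (NDUFA4 counted here), 17 of complex V, cytochrome c, and 4 symbols of copies or readthrough transcripts (UQCRBP1, UQCRHL, ATP5MGL and ATP5MF-PTCD1), which leaves 77 subunits and carriers. Each of the 81 also passed the filter on low values in every fit.

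Polyadenylated RNA was sequenced in 16 libraries that fall into 12 groups and 3 sets, each set with controls of its own in both lines. In the MYB set, cells received a control siRNA (siCtrl) or an siRNA against MYB (siMYB), with 2 libraries per group in each line. In the TCF7 set they received siCtrl or an siRNA against TCF7 (siTCF7), and in the CRISPRi set a control guide (sgCtrl) or the guide sgMYB-E3, with 1 library per group in each line. The labels give the genotype of control libraries as wild type, that of siMYB and sgMYB-E3 libraries as MYB knockdown and that of siTCF7 libraries as TCF7 knockdown, and they mark both arms of the CRISPRi set as treated by CRISPRi, a method that represses transcription at a guided site without cutting the DNA. Whether the libraries of 1 group come from separate cultures is not given in the sources used here, so p-values measure only the spread between these libraries, which may be technical. SNU719 and YCC10 were grown in different media, so line and medium cannot be told apart.

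Complexes I to IV sit in the inner mitochondrial membrane, pass electrons from NADH and succinate to oxygen, and complexes I, III and IV pump protons as they do so. Complex I takes electrons from NADH and complex II, which is also the succinate dehydrogenase of the citric acid cycle, takes them from succinate. Complex III hands electrons to cytochrome c, complex IV delivers them to oxygen, and complex V, the ATP synthase, uses the proton gradient to make ATP. Most subunits are encoded in the nucleus and imported, and the remaining core subunits are encoded in mitochondrial DNA. The mitochondrially encoded genes were not analysed here.

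The knockdowns were visible in the targeted genes. MYB, which encodes a transcription factor, was at 45.7 and 44.2 FPKM in the SNU719 siCtrl libraries against 9.66 and 8.45 with siMYB, and at 29.4 and 27.3 against 1.95 and 1.43 in YCC10. With sgMYB-E3 it was at 18.3 against 47.6 in SNU719 and 12.3 against 21.1 in YCC10. TCF7, a transcription factor of the WNT pathway, was at 7.99 against 26.9 in SNU719 and 4.14 against 22.6 in YCC10 with siTCF7, and MYB was also lower in those libraries, at 25.3 against 45.1 and 5.40 against 25.6. Of 7 epithelial markers, 6 reached 1 FPKM in all libraries, while the 6 fibroblast and 4 endothelial markers stayed under 1 in all. Of 8 lymphoid or myeloid markers, 6 stayed under 1, and LYZ and CD68 were above it. The FPKM totals ran from 530695 to 1360018 and 11176 to 12085 genes reached 1 FPKM per library. The number of reads behind a value is unknown. In bulk RNA, fewer cells of a type and less RNA per cell cannot be told apart.

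The respiratory chain genes were highly expressed. Their median level was 109.78 FPKM against 10.51 over the 12290 genes that averaged 1 FPKM or more. By complex, the median member stood at 74.58 FPKM in complex I, 81.21 in II, 92.74 in III, 243.92 in IV and 212.86 in V, so complexes IV and V were above the other 3 in these per-length units. The highest members were ATP5MF, a membrane subunit of the ATP synthase, at 816 FPKM, and COX6B1, a small subunit of complex IV, at 815. Within complex I the range ran from 3.07 FPKM for NDUFV3 to 479 for NDUFS5 and within complex II from 9.55 for SDHC to 126 for SDHB. SDHA to SDHD are the 4 subunits of 1 enzyme, and their transcripts thus spanned a wide range on this scale.

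After siMYB, the counts of members that fell or rose were unlike in SNU719 and YCC10. A test of the line difference itself, given below, called members less often than all genes when the replicate number was left out. In SNU719, 13 of 81 members fell and 0 rose, against 14.6% and 8.04% of all 12095 genes tested. In this fit, which leaves the replicate number out, that count lower is close to the share among all genes. In YCC10, 8 fell and 9 rose, against 26.5% and 15.3%. The median log2 change of the 81 was -0.13 in SNU719, where all genes had a median of -0.06, and 0.00 in YCC10, where all genes had -0.07. With 1 library left out, the member median ran from -0.20 to -0.08 in SNU719 and from -0.05 to 0.07 in YCC10, the low end in SNU719 without siMYB 2 and the ends in YCC10 without siMYB 2 and without siMYB 1. In SNU719, 62 of 81 members were below 0, against 7365 of all 12095 genes, and in YCC10 40, against 7087. Changes are on the scale of log2(FPKM + 1). A member is said to rise or fall when its adjusted p is under 0.05 (limma, Benjamini-Hochberg over all genes tested, two-sided). The sign was the same in both lines for 45 members, and that share of all genes was not counted.

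The counts moved with the fit and with the scaling. When each pair of same-numbered libraries was given its own term (the replicate block), 33 members fell and 2 rose in SNU719, against 26.2% and 14% of all genes, and 21 fell and 20 rose in YCC10, against 35.4% and 20.9%. With values rescaled by the median of ratios, which sets the typical gene to the same level in every library, the split was 9 lower and 0 higher in SNU719 and 3 lower and 16 higher in YCC10. With quantile normalization it was 8 and 1 in SNU719 and 4 and 15 in YCC10. Here and below, the shares of all genes under these rescalings are not given, so such counts stand without a background. With any 1 library of the line left out, fewer members were lower in SNU719, and fewer passed in either direction in YCC10. The shares of all genes shrank as well.

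**Figure D1:**
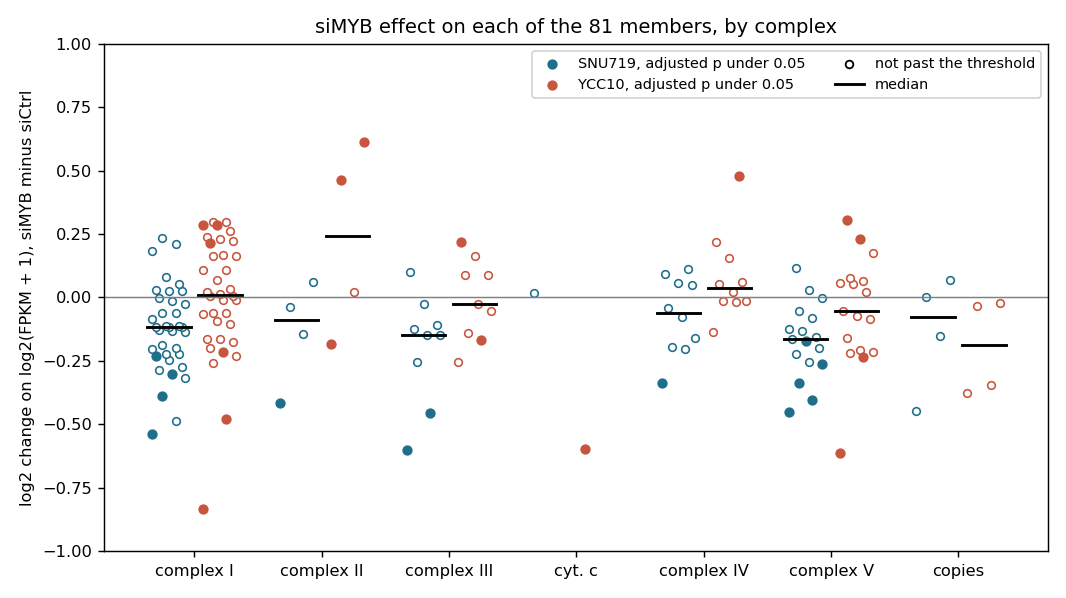
The log2 change with siMYB (vertical axis, siMYB minus siCtrl on the log2(FPKM + 1) scale) is plotted for the 81 members by complex, with SNU719 in teal and YCC10 in red. Filled points passed the threshold, open points did not, and bars are medians: in complex II the YCC10 median was 0.24 and the SNU719 median -0.09.

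By complex, the SNU719 medians were -0.12 for complex I, -0.09 for II, -0.15 for III, -0.06 for IV and -0.16 for V, with 4 of 36, 1 of 4, 2 of 9, 1 of 10 and 5 of 17 members lower. The YCC10 medians were 0.01, 0.24, -0.03, 0.04 and -0.05. There 3 complex I members fell and 3 rose, in complex II 1 fell and 2 rose, in complex III 1 fell and 1 rose, in complex IV 1 rose, in complex V 2 fell and 2 rose, and cytochrome c fell. In SNU719, 28 of 36 complex I members, 3 of 4 of complex II, 8 of 9 of complex III, 6 of 10 of complex IV and 15 of 17 of complex V were below 0, whether or not they passed. In YCC10 the numbers below 0 were 16, 1, 5, 4 and 9. In complex II in YCC10, 3 of 4 members passed, in opposite directions.

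Over both lines (cell line as covariate), siMYB lowered 13 members and raised 1, against 20.7% and 8.76% of all genes, with a median of -0.08 for the members (-0.11 to -0.02 with 1 library left out) and -0.07 for all genes. This was below the share among all genes in both directions. With median-of-ratios scaling the split was 3 lower and 7 higher, and with quantile normalization 4 and 4. Of the members, 6 fell in each line tested on its own: NDUFS5, NDUFB9, SDHB, UQCRC2, ATP5PB and ATP5F1C. They lie in 4 of the 5 complexes, and 0 members rose in both lines. The share of all genes that fell in both lines was not counted, so this number stands without a background.

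NDUFS5, an accessory subunit of complex I (chromosome 1, 39026318 to 39034636, hg38, plus strand), fell most in that fit. It was at 531 and 583 FPKM in the SNU719 siCtrl libraries and at 370 and 396 with siMYB. In YCC10 it was at 611 and 648 with siCtrl and at 336 and 370 with siMYB. The 4 control values lay above the 4 siMYB values, and the siMYB means were 68.8% and 56.1% of the control means. The log2 change was -0.54 (SE 0.0783, adjusted p = 0.00773 by limma) in SNU719 and -0.83 (SE 0.0783, adjusted p = 0.000888 by limma) in YCC10. NDUFS5 remained past the threshold in both lines with each library left out in turn and under each of the other settings run.

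ATP5PB, the subunit b of the stator stalk of the ATP synthase (chromosome 1, 111448864 to 111462773, plus strand), was at 80.1 and 76.4 FPKM in SNU719 controls and at 58.2 and 55.6 with siMYB. In YCC10, where its level was lower, it was at 45.5 and 41.6 against 27.4 and 28.8. Control and siMYB values did not overlap within either line. The log2 change was -0.45 (SE 0.0650, adjusted p = 0.00749 by limma) in SNU719 and -0.61 (SE 0.0650, adjusted p = 0.00128 by limma) in YCC10, and both calls held with each library left out and under each setting run.

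NDUFB9, an accessory subunit in the membrane arm of complex I, was at 212 and 217 FPKM in SNU719 controls and at 161 and 166 with siMYB. In YCC10 it was at 303 and 317 against 222 and 222. The siMYB libraries of each line again lay below its controls, at 76.2% and 71.5% of the control mean. The log2 change was -0.39 (SE 0.0467, adjusted p = 0.00443 by limma) in SNU719, a call lost with quantile normalization, and -0.48 (SE 0.0467, adjusted p = 0.000973 by limma) in YCC10.

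UQCRC2, a core protein of complex III (chromosome 16, 21952660 to 21983660, plus strand), was at 142 and 149 FPKM in SNU719 controls against 94.7 and 96.3 with siMYB, and at 155 and 165 against 140 and 144 in YCC10. SDHB, the iron-sulfur subunit of complex II (chromosome 1, 17018722 to 17054170, minus strand), was at 153 and 152 against 113 and 115 in SNU719 and at 152 and 150 against 134 and 132 in YCC10. For both genes the larger step was in SNU719. There the log2 change was -0.60 (SE 0.0520, adjusted p = 0.00176 by limma) for UQCRC2 and -0.42 (SE 0.0413, adjusted p = 0.00246 by limma) for SDHB, and both calls held with each library left out. The YCC10 changes of -0.17 for UQCRC2 and -0.18 for SDHB lost the threshold whichever library of that line was left out.

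ATP5F1C, the gamma subunit at the rotating shaft of the ATP synthase (chromosome 10, 7788129 to 7807815, plus strand), was at 196 and 187 FPKM in SNU719 controls and at 155 and 147 with siMYB, and at 258 and 241 against 215 and 208 in YCC10. Its change over both lines was -0.29 (SE 0.0521, adjusted p = 0.00939 by limma) and held with each library left out, but not with median-of-ratios scaling or quantile normalization.

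Promoter windows of 150 bases before RefSeq's transcription start are shown for 5 members whose levels carry the results, from RefSeq on GRCh38.p14, 5′ to 3′ on the gene's strand. Capitals mark matches on either strand, none overlapping another, to letters associated with regulators of mitochondrial or MYB-bound genes. The letters searched were CCGGAAG for ETS factors such as GABPA, CCAAT for the factor NF-Y, CAACNG for MYB, and for NRF1 GCGCA, any base, then GCGC. The starts are those of RefSeq: the windows of UQCRC2 and ATP5PB lie inside the wider gene bounds of GENCODE given here, and those of SDHB, ATP5F1C and SDHA overlap them. The windows are SDHB at chr1:17054033-17054182 (minus strand), UQCRC2 at chr16:21953211-21953360 (plus), ATP5PB at chr1:111449314-111449463 (plus), ATP5F1C at chr10:7788027-7788176 (plus) and SDHA at chr5:218170-218319 (plus).
SDHB: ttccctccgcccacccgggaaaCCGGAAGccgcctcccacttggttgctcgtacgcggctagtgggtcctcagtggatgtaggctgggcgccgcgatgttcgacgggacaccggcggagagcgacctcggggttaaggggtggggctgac
UQCRC2: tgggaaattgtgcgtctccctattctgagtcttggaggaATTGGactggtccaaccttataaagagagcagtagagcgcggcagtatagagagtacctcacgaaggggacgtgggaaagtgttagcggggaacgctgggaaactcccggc
ATP5PB: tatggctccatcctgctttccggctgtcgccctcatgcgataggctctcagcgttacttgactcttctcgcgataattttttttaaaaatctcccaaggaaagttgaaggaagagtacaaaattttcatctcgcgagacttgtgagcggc
ATP5F1C: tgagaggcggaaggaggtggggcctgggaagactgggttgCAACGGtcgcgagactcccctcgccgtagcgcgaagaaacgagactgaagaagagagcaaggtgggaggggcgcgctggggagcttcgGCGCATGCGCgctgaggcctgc
SDHA: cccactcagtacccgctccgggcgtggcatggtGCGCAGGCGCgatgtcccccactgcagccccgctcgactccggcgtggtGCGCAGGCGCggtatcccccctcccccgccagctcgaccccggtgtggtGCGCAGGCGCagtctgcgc

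SDHB held 1 ETS match, UQCRC2 1 CCAAT match on the reverse strand, ATP5F1C 1 NRF1 and 1 MYB match, SDHA 3 NRF1 matches, and ATP5PB none of these letters in the window. Of the 81 members, 64 had a promoter in the table. For 5 of the 81, another symbol was looked up through a synonym because the one used here had no promoter entry. In the 250 bases before the start, NRF1 letters were in 21.9% of the 64 member promoters against 5.5% of all 27305 promoters, and ETS letters in 26.6% against 8.8%. CCAAT was in 31.2% against 33.0% and the MYB letters in 21.9% against 27.2%. A match is a description of the sequence and no binding was measured.

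In complex II the subunits of a single enzyme went in opposite directions with siMYB in YCC10, SDHB down and SDHA and SDHC up. The SDHB side, at -0.18, lost the threshold whichever library of that line was left out, as given above. SDHA, the flavin-carrying catalytic subunit of complex II (chromosome 5, 218241 to 256700, plus strand), was at 50.3 and 48.1 FPKM in SNU719 controls and at 45.2 and 43.7 with siMYB. In YCC10 it was at 129 and 128 in controls and at 176 and 179 with siMYB, 138.1% of the control mean. The groups did not overlap in either line, and the direction was opposite. The change in YCC10 was 0.46 (SE 0.0467, adjusted p = 0.00110 by limma) and in SNU719 -0.14, which passed only with the replicate block (adjusted p = 0.0225 by limma with a term per pair). The difference of both effects was 0.61 (SE 0.0661, adjusted p = 0.00471 by limma), past the threshold with each library left out and under each setting run.

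SDHC, a membrane anchor of complex II (chromosome 1, 161314257 to 161375340, plus strand), was low in YCC10, at 2.63 and 2.44 FPKM in controls, and reached 4.31 and 4.53 with siMYB. In SNU719 it was at 16.3 and 15.9 in controls and at 16.96 and 16.76 with siMYB. The YCC10 change was 0.61 (SE 0.0532, adjusted p = 0.000713 by limma) and the difference between the lines 0.55 (SE 0.0752, adjusted p = 0.00823 by limma). Both held with each library left out. The other anchor, SDHD, had changes of -0.04 in SNU719 and 0.02 in YCC10. SDHD did not pass a test in either line.

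The test of the line difference called 5 members, all with the higher value in YCC10 (0 lower), against 10.3% lower and 8.65% higher of all genes. Both counts were below those shares. Besides SDHA and SDHC these were UQCRC2 (0.44, adjusted p = 0.0151 by limma), ATP5F1B, the catalytic beta subunit of the ATP synthase (0.32, adjusted p = 0.0420 by limma), and SDHB (0.23, adjusted p = 0.0432 by limma). The calls of ATP5F1B and SDHB were lost with any 1 library left out, and that of UQCRC2 without SNU719 siCtrl 2, YCC10 siCtrl 1 or YCC10 siMYB 2. With the replicate block, 23 members were higher and 4 lower in this test, against 16.1% and 19.9% of all genes, and with median-of-ratios scaling 11 were higher and 0 lower. The median difference of the members was 0.12, against -0.03 for all genes, and ran from 0.08 to 0.21 with 1 library left out.

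CYCS, the mobile electron carrier between complexes III and IV (chromosome 7, 25120091 to 25125361, minus strand), was at 31.1 and 27.0 FPKM in SNU719 controls and at 31.6 and 27.2 with siMYB. In YCC10 it was at 58.1 and 47.3 against 37.7 and 31.3. The siMYB values fell below the controls in YCC10 and overlapped them in SNU719. The YCC10 change was -0.60 (SE 0.149, adjusted p = 0.0226 by limma). The call was lost without YCC10 siCtrl 1 or YCC10 siMYB 2 (adjusted p up to 0.108 by limma with 1 library left out) and under both rescalings. The line difference of -0.61 did not pass the threshold (SE 0.210, adjusted p = 0.1 by limma) and did pass with the block (adjusted p = 0.00554 by limma with a term per pair).

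Among other members of complexes III and IV, CYC1, the heme-bearing cytochrome c1 of complex III, fell in SNU719 from 97.9 and 110 to 74.6 and 76.1 FPKM, a log2 change of -0.45 (SE 0.103, adjusted p = 0.0290 by limma). That call was lost with any library of SNU719 left out. UQCRFS1, the Rieske iron-sulfur protein of the same complex, had changes of -0.15 and -0.03 in SNU719 and YCC10 and COX5B, of complex IV, 0.06 and -0.02. COX5A fell over both lines (-0.17, adjusted p = 0.0444 by limma), a call lost with any library left out and with the term per pair (adjusted p = 0.0521 by limma). That block also gained COX5A in SNU719 (-0.19, adjusted p = 0.0195 by limma) and YCC10 (-0.14, adjusted p = 0.0306 by limma). It likewise gained UQCRFS1 in SNU719 (adjusted p = 0.0342 by limma) and CYC1 in YCC10 (-0.26, adjusted p = 0.0114 by limma).

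Among the core subunits of complex I, NDUFV2 fell in SNU719 by 0.23 on the log2 scale (SE 0.0588, adjusted p = 0.0397 by limma), a call lost with any library of the line left out. NDUFV1, NDUFS1, NDUFS3, NDUFS7 and NDUFS8 passed no siMYB test in the fits without the block. NDUFS7 was at 66.9 and 73.9 FPKM in SNU719 controls and at 53.5 and 61.7 with siMYB, and at 68.6 and 84.3 against 80.0 and 90.9 in YCC10, where the groups overlapped. Its changes were -0.29 and 0.16. With the term per pair NDUFS7 passed in SNU719 (adjusted p = 0.0140 by limma), in YCC10 (adjusted p = 0.0345 by limma) and in the line difference (0.45, adjusted p = 0.0131 by limma). NDUFV1 had changes of -0.08 in SNU719 and 0.26 in YCC10, and the latter passed with the block (adjusted p = 0.0326 by limma). The changes in SNU719 and YCC10 were -0.12 and -0.01 for NDUFS1, -0.12 and 0.01 for NDUFS3 and -0.06 and 0.16 for NDUFS8.

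Of the subunits in the catalytic head and shaft of the ATP synthase, 3 are given here. Their changes with siMYB in YCC10 were unlike, without a test between them. ATP5F1A, the alpha subunit, was at 367 and 377 FPKM in controls and at 432 and 440 with siMYB, ATP5F1B at 636 and 657 against 654 and 687, and ATP5F1C fell as given above. The ATP5F1A change of 0.23 (SE 0.0676, adjusted p = 0.0392 by limma) passed the threshold but was lost with any library of YCC10 left out. The ATP5F1B change of 0.05 did not pass. In SNU719 the changes of the 3 genes were -0.13, -0.26 and -0.34. Of these, ATP5F1B and ATP5F1C passed, and each lost the call in 3 of 4 fits with 1 library of the line left out. ATP5MC1, which encodes a copy of the membrane ring subunit c, fell in SNU719 (-0.40, adjusted p = 0.0369 by limma), and ATP5MC2, another gene for that subunit, rose in YCC10 (0.30, adjusted p = 0.0447 by limma). Both calls were lost with any library of the line left out.

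Other named calls were made in 1 line or only over both. COX7B, a small subunit of complex IV, was at 45.5 and 43.5 FPKM in SNU719 controls and at 37.6 and 32.5 with siMYB (-0.34, adjusted p = 0.0323 by limma). NDUFA9, an accessory subunit of complex I, fell there by 0.30 on the log2 scale (adjusted p = 0.0310 by limma). In YCC10, COX6C of complex IV rose from 285 and 306 to 392 and 432 FPKM (0.48, adjusted p = 0.0314 by limma), NDUFB5 of complex I by 0.29 (adjusted p = 0.0287 by limma) and NDUFA10, also of complex I, by 0.29 (adjusted p = 0.0152 by limma). NDUFB5 was the 1 member that rose over both lines (0.24, adjusted p = 0.0290 by limma), and the replicate block ended that call. NDUFA8, an accessory subunit of complex I, fell over both lines (-0.37, adjusted p = 0.0446 by limma). ATP5MF-PTCD1, a readthrough transcript, was at -0.41 there (adjusted p = 0.0451 by limma). Each of these calls was lost without at least 1 library. At the other end, UQCR11 of complex III and ATP5MPL of complex V had the highest values of their complexes over both lines, 0.13 and 0.15, and neither passed.

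**Figure D2:**
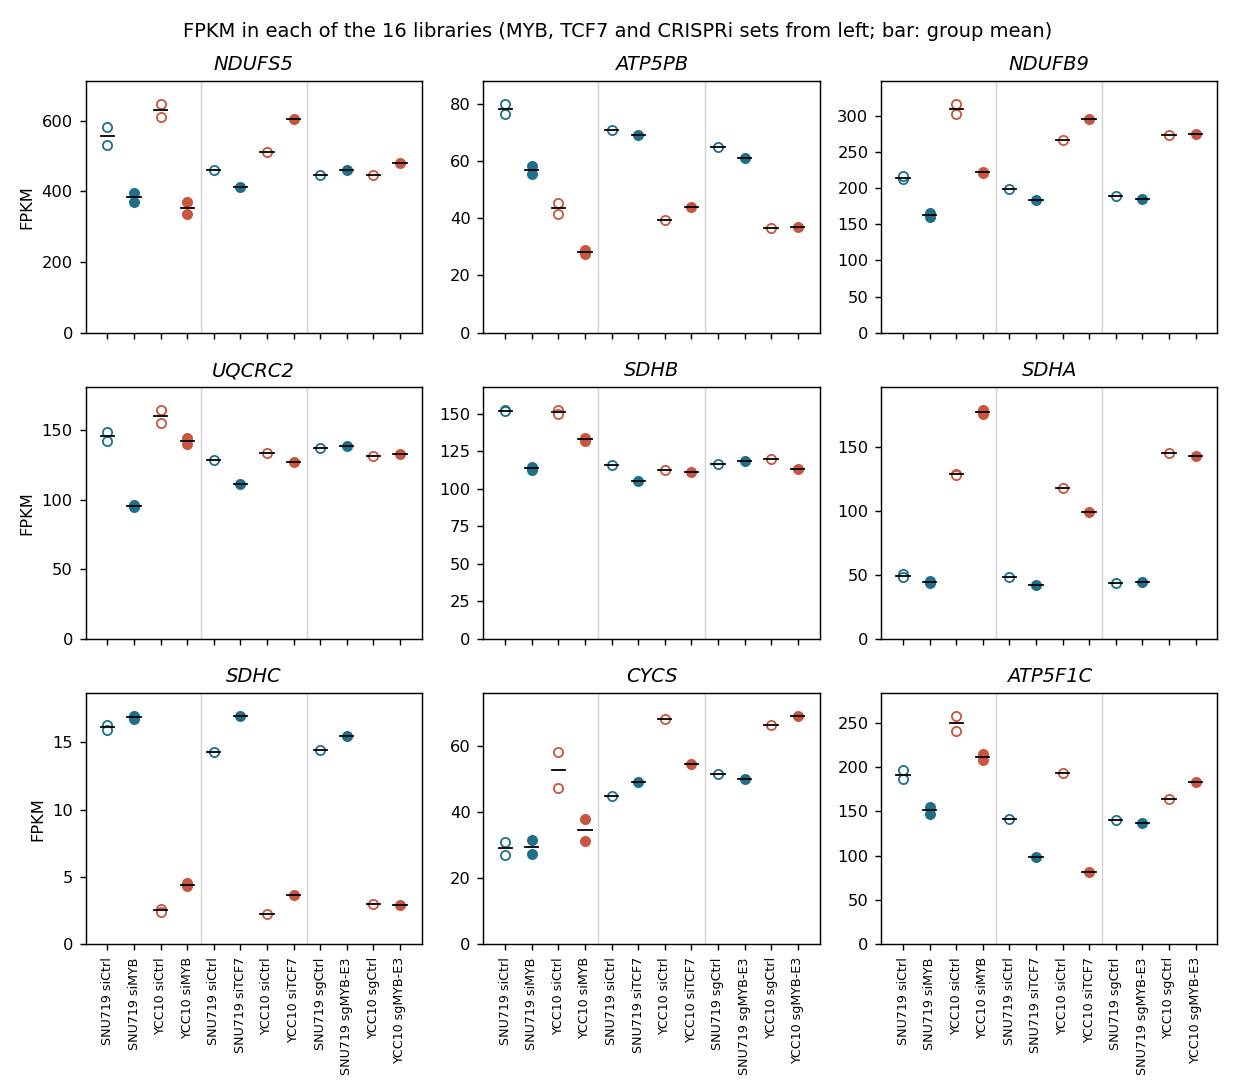
FPKM (vertical axis, linear from 0) of 9 members in each of the 16 libraries, with SNU719 in teal and YCC10 in red, open circles for controls and filled circles for knockdowns. Bars are group means (n = 2 in the MYB set, 1 elsewhere): NDUFS5, ATP5PB and NDUFB9 are lower with siMYB in both lines, SDHA is higher with siMYB in YCC10, and ATP5F1C is lowest with siTCF7.

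With siTCF7, 7 members fell and 2 rose over both lines, against 13.2% lower and 11.4% higher of all 12290 genes tested. The medians were -0.01 for the members (-0.06 to 0.05 with 1 library left out) and 0.00 for all genes. This effect rests on 1 library per group in each line, so its p-values borrow the spread from the MYB set and from the difference between the lines. With the replicate block 12 fell and 4 rose, against 14.2% and 13.1% of all genes, and with quantile normalization 4 fell and 3 rose. Both the counts of members and the shares of all genes moved when 1 library was left out.

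ATP5F1C had the largest drop with siTCF7. It was at 142 FPKM in the SNU719 control and 98.2 with siTCF7, and at 193 and 81.6 in YCC10. The level with siTCF7 was thus 69.3% and 42.2% of the control. The log2 change was -0.88 (SE 0.143, adjusted p = 0.00884 by limma), past the threshold with each of the 16 libraries left out and under each setting run. Without a library of this set, 1 line remains with 1 library per group, which gives no test within a line. ATP5F1B fell beside it, from 405 to 330 in SNU719 and from 510 to 387 in YCC10 (-0.35, adjusted p = 0.00917 by limma).

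UQCRB, the ubiquinol-binding small subunit of complex III, was at 9.09 and 7.73 FPKM in SNU719 and at 17.7 and 9.33 in YCC10 with siCtrl and siTCF7 (-0.53, adjusted p = 0.0269 by limma). NDUFA12, an accessory subunit of complex I, was at 145 and 121 in SNU719 and at 123 and 75.6 in YCC10 (-0.47, adjusted p = 0.0128 by limma). The level with siTCF7 was 83.9% and 61.7% of the control for NDUFA12 and 85.1% and 52.6% for UQCRB in SNU719 and YCC10, a difference between lines that was not tested. ATP5ME of complex V (-0.26, adjusted p = 0.0125 by limma), SDHA (-0.22, adjusted p = 0.0191 by limma) and UQCRH, the hinge protein of complex III (-0.21, adjusted p = 0.0234 by limma), fell by less.

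The 2 members that rose with siTCF7 were NDUFS4, an accessory subunit of complex I (0.40, adjusted p = 0.0202 by limma), and SDHC (0.38, adjusted p = 0.0132 by limma). NDUFS4 was at 38.3 and 43.9 FPKM in SNU719 and at 46.8 and 71.8 in YCC10. SDHC was at 14.3 and 16.96 in SNU719 and at 2.25 and 3.68 in YCC10. Each siTCF7 call other than that of ATP5F1C was lost without either YCC10 library of the set, which leaves SNU719 alone.

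With sgMYB-E3, 0 members fell and 0 rose, against 0.0244% lower and 0.00814% higher of all genes. MYB itself was at -1.03 (SE 0.264) in that test and did not pass it (adjusted p = 0.981 by limma). At an unadjusted p under 0.05 there was 1 member, ATP5ME at -0.12. The lowest and highest changes of the 81 were -0.18 and 0.21 and their median -0.01. NDUFS5 was at 445 and 460 FPKM in SNU719 and at 447 and 479 in YCC10 with sgCtrl and sgMYB-E3, and ATP5PB at 65.0 and 61.1 and at 36.6 and 36.9.

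The difference between the siMYB effect, averaged over the lines, and the sgMYB-E3 effect was tested directly, and these effects share no control library. It called 5 members lower with siMYB and 0 higher, against 6.38% and 2.87% of all genes: NDUFS5 (-0.76, adjusted p = 0.0129 by limma), ATP5PB (-0.49, adjusted p = 0.0166 by limma), NDUFB9 (-0.42, adjusted p = 0.0222 by limma), UQCRC2 (-0.40, adjusted p = 0.0163 by limma) and SDHB (-0.27, adjusted p = 0.0412 by limma). MYB was lower by 1.79 on the log2 scale in this test (adjusted p = 0.0168 by limma), so the knockdowns compared differ in depth. With the replicate block 8 members were lower, against 7.89% of all genes, with median-of-ratios scaling 3 and with quantile normalization 1. Without any 1 library of the CRISPRi set the count was 0.

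Against the siTCF7 effect, the siMYB effect was lower for NDUFS5 (-0.73, adjusted p = 0.0108 by limma), ATP5PB (-0.59, adjusted p = 0.00659 by limma) and NDUFB9 (-0.45, adjusted p = 0.0140 by limma) and higher for SDHA (0.38, adjusted p = 0.00915 by limma). That is 3 lower and 1 higher, against 9.1% and 4.07% of all genes. The 4 calls held with each of the 16 libraries left out, and that of SDHA was lost with quantile normalization. With the replicate block 6 were lower and 3 higher, against 10.6% and 4.72% of all genes, and with median-of-ratios scaling 3 were lower and 6 higher. Member counts and the shares of all genes also moved with 1 library left out. For ATP5F1C the difference of 0.59 did not pass (adjusted p = 0.0643 by limma).

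**Figure D3:**
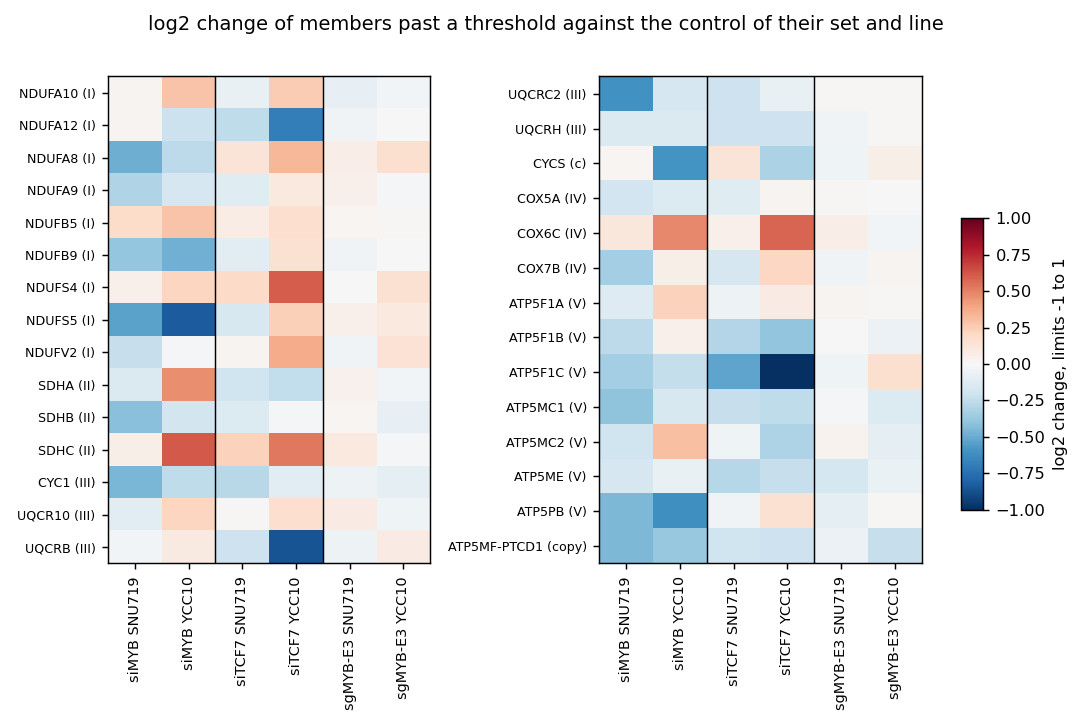
Each of the 29 rows is a member past the threshold in a siMYB or siTCF7 test, with its complex in brackets, and each column a knockdown in 1 line, coloured by its log2 change on the log2(FPKM + 1) scale against the control of its own set and line (blue lower, red higher, limits -1 to 1, 1 value beyond). NDUFS5, NDUFB9 and ATP5PB are blue in both siMYB columns, ATP5F1C is darkest with siTCF7 in YCC10 at -1.23, and the sgMYB-E3 columns stay between -0.23 and 0.16.

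The siTCF7 and sgMYB-E3 effects were fitted over both lines, and their values by line are a description. For ATP5F1C the siTCF7 change was -0.52 in SNU719 and -1.23 in YCC10, from 1 library per group. The member medians with siTCF7 were -0.06 in SNU719, with 53 of 81 below 0, and 0.05 in YCC10, with 33 below 0. Complex I stood at -0.01 and 0.14, complex III at -0.21 and -0.01, complex IV at -0.05 and 0.15 and complex V at -0.10 and -0.20. Of the 5 complexes, only the ATP synthase had a median at or below -0.10 in both lines. With sgMYB-E3 the medians were 0.01 and -0.01.

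In control libraries the members were higher in YCC10 than in SNU719. Of 81, 45 were higher and 7 lower, against 30.4% higher and 33.6% lower of the 12187 genes tested, and the median difference was 0.28 against -0.02 for all genes. There are 4 control libraries per line, from 3 sets whose levels differed for some members. NDUFS7, chosen after its values were seen, was at 66.9 and 73.9 FPKM in SNU719 controls of the MYB set. It was at 11.4 in that of the TCF7 set and 58.0 in that of the CRISPRi set. The test takes set as covariate, whereas the overlap counts here and the SDs below also hold differences between sets. For 26 members all 4 YCC10 values were above all 4 SNU719 values, and for 4 members below. The share of all genes without such overlap was not counted, so these numbers stand without a background. By complex, 24 of 36 members were higher in complex I, 2 of 4 in II, 6 of 9 in III, 2 of 10 in IV and 9 of 17 in V. The medians were 0.37, 0.30, 0.40, 0.06 and 0.31, so complex IV was nearest to 0. The count higher was 42 to 47 with 1 library left out and 39 to 52 under the other settings. The shares of all genes under those other settings are not given.

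CYC1 had a mean of 91.6 ± 15.4 FPKM (SD, n = 4) in SNU719 controls and 261 ± 53.5 (SD, n = 4) in YCC10, a log2 difference of 1.49 (adjusted p = 1.28e-05 by limma). NDUFV1, the subunit of complex I that binds NADH (chromosome 11, 67605653 to 67612554), had 62.5 ± 8.33 and 179 ± 35.8 (SD, n = 4 each; 1.49, adjusted p = 2.32e-05 by limma). SDHA had 47.5 ± 3.04 and 130 ± 11.5 (SD, n = 4 each; 1.43, adjusted p = 2.37e-05 by limma). NDUFS6, an accessory subunit of complex I (chromosome 5, 1801400 to 1816605), and COX6C had differences of 1.34 and 1.32. In each of these 5 genes the lines did not overlap. ATP5PF and ATP5MG of complex V, the pseudogene UQCRBP1 and NDUFS8, an iron-sulfur core subunit of complex I, followed at 1.00, 0.92, 0.92 and 0.85.

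SDHC went the other way and was the member with the largest difference between the lines. Its control mean was 15.2 ± 1.03 FPKM in SNU719 and 2.57 ± 0.306 in YCC10 (SD, n = 4 each), a log2 difference of -2.19 (SE 0.0707, adjusted p = 2.40e-06 by limma). ATP5PB was also lower in YCC10, at 73.1 ± 6.57 and 40.8 ± 3.74 (SD, n = 4 each; -0.83, adjusted p = 2.65e-05 by limma). Complex II thus held the member furthest below SNU719, SDHC, and 1 of those furthest above it, SDHA, while SDHB differed by -0.01.

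The difference between the lines went with that of neighbouring genes. For each member the median line difference of genes tested within 5 Mb was taken, for the 80 members with at least 10 such neighbours. Member and neighbourhood correlated across members at a Spearman rho of 0.577 and a Pearson r of 0.615. This is a description without a test, since members that lie near each other share neighbours and all values come from the same 8 libraries. The 22 neighbours of SDHA had a median of 1.48 and the 27 of NDUFS6 a median of 1.38, both on the short arm of chromosome 5. The 59 neighbours of ATP5PB had a median of -0.72. Exceptions included SDHC, with 53 neighbours at a median of 0.04, and NDUFV1, with 180 neighbours at 0.24. Others were CYCS, at 0.66 with 40 neighbours at -0.50, and NDUFS4, at 0.23 with 20 neighbours at -0.51. The genes named in this comparison with neighbours were chosen after their values were seen, and more members departed from their neighbours. The copy number of these regions was not measured here.

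**Figure D4:**
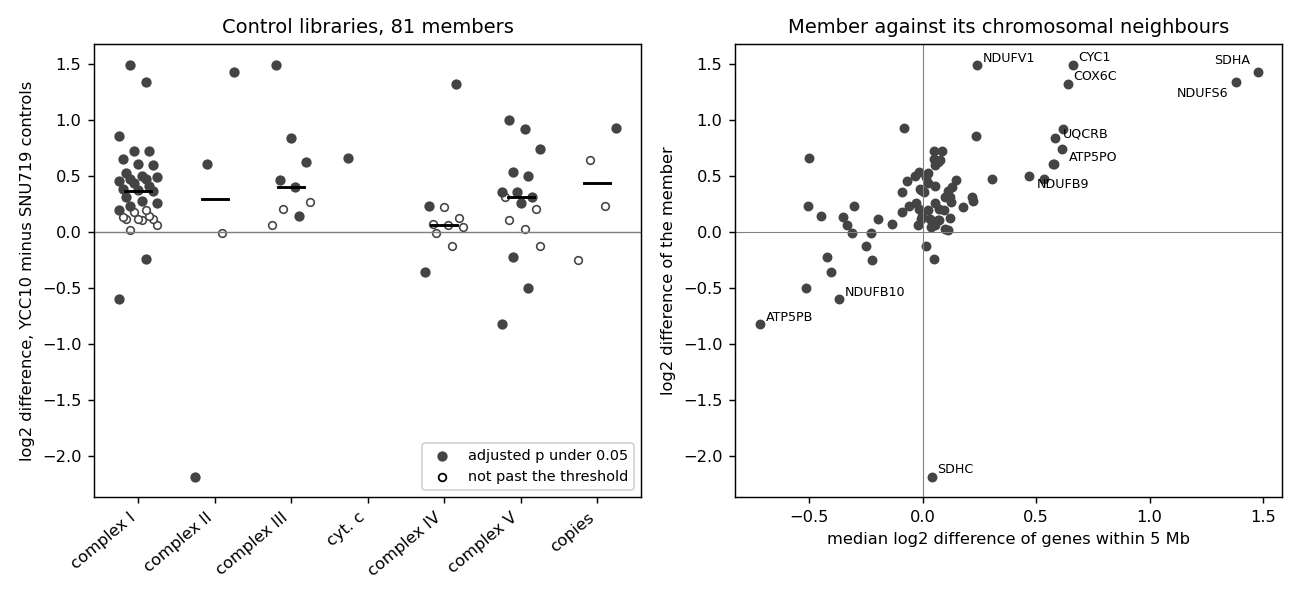
On the left, the log2 difference between YCC10 and SNU719 control libraries (n = 4 per line) for the 81 members by complex, filled where it passed the threshold, with bars at the medians. On the right, the same difference (vertical) against the median of genes within 5 Mb (horizontal) for 80 members: SDHA and NDUFS6 lie at the upper right, ATP5PB at the lower left, and SDHC at -2.19 above a neighbourhood of 0.04.

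Genes that serve the respiratory chain without being members were counted in the same tests. Of 50 assembly factors, proteins that help build the complexes, 8 fell and 1 rose with siMYB in SNU719, against 14.6% and 8.04% of all genes, and 16 fell and 4 rose in YCC10, against 26.5% and 15.3%. The medians were -0.14 and -0.27. Over both lines 15 fell and 1 rose, against 20.7% and 8.76% of all genes. Among those that fell were TTC19, a factor of complex III (-0.89, adjusted p = 0.00318 by limma), TMEM126A, a factor of complex I (-0.68, adjusted p = 0.00602 by limma), and COX10, which makes the heme of complex IV (-0.54, adjusted p = 0.00241 by limma); these 3 were chosen after their values were seen. With siTCF7, 12 fell and 3 rose, against 13.2% and 11.4%. Whether assembly factors and subunits differ was not tested.

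Of 17 enzymes of the citric acid cycle and pyruvate dehydrogenase, 4 fell and 3 rose with siMYB in SNU719, 3 fell and 4 rose in YCC10, and 2 fell and 2 rose with siTCF7. The shares of all genes were 14.6% and 8.04%, 26.5% and 15.3%, and 13.2% and 11.4%. Of 14 regulators of mitochondrial genes, 1 fell and 0 rose in SNU719 and 4 fell and 1 rose in YCC10, beside the same shares of all genes. TFAM, which packages mitochondrial DNA, was at -1.27 in YCC10 (adjusted p = 0.00285 by limma), and SLIRP, which stabilises mitochondrial mRNA, was at -0.84 (adjusted p = 0.000479 by limma); both were named after their values were seen. Of 22 further listed symbols of subunits or associated proteins that the symbol rule does not match, older names included, 4 were tested. These were COX4I1, COX7A2L, NDUFAB1 and ATP5IF1. All were below 0 with siMYB in both lines, and 2 of them fell in SNU719 and 1 in YCC10.

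Several members share sequence with other genes, so that reads could be split between them, and their values are uncertain to that extent. SDHA has 3 related symbols in the table, SDHAP1 to SDHAP3, of which SDHAP3 was at 16.1 and 27.2 FPKM in YCC10 controls and 21.1 and 35.4 with siMYB. UQCRB stands beside UQCRBP1, UQCRH beside UQCRHL, ATP5MG beside ATP5MGL, ATP5MF beside ATP5MF-PTCD1, and NDUFC2 beside NDUFC2-KCTD14. UQCRHL varied with the library number: in SNU719 it was at 6.06 and 29.3 with siCtrl and at 4.25 and 32.0 with siMYB in libraries 1 and 2. ATP5MGL was listed at 0 in the libraries numbered 1 of the MYB set and at 1.84 in both SNU719 libraries numbered 2.

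Libraries numbered 1 and 2 differed in the members in all 4 groups of the MYB set. The median difference of the 81, number 2 minus number 1, was 0.12, 0.07, 0.11 and 0.11 in SNU719 siCtrl, YCC10 siCtrl, SNU719 siMYB and YCC10 siMYB, against 0.02 over all genes in each. SDHD showed the reverse, at 57.8 and 46.5 FPKM in SNU719 controls and 89.97 and 75.15 in YCC10 controls. Within numbers the siMYB median was -0.15 and -0.14 in SNU719 and -0.02 and 0.01 in YCC10, and 59 and 67 of 81 members had the same sign in both numbers. Across members the number difference had a Spearman rho of -0.03 with transcript length. What the number stands for is not given in the sources used here, and its part in these results was not tested beyond the replicate block.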

How the data were processed

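RNA was measured in 16 libraries of SNU719 and YCC10 cells. Per the labels' protocols, libraries came from 1 ug of total RNA with a stranded mRNA kit. Per the submitters' processing notes, the tools were bcl2fastq 2.20.0, HISAT2 2.1.0 and Cufflinks 2.2.1 on hg38; no source used here gives their settings or annotation. The values the authors deposited are FPKM in 1 table of 33648 rows, with no counts, so depth is unknown and no counting interval can be given. The table held 0 columns of other samples. Rows of 1 symbol were summed (2097 symbols stood on more than 1 row).

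Tests used limma 3.58.1 in R 4.3.3 on log2(FPKM + 1), with an intensity trend, for genes averaging 1 FPKM or more in the fitted libraries, with Benjamini-Hochberg adjustment over all genes tested, two-sided, threshold 0.05. This scale understates the change of weakly expressed genes. For the MYB set, 1 fit had a mean per group (4 residual degrees of freedom) and 1 had line as covariate (5). The siTCF7 and sgMYB-E3 effects came from all 16 libraries, with a term per line and set and 1 shared effect over both lines (6). Control libraries were compared with set as covariate (4). Scripts were tested on simulated data. Summaries used Python 3.11.15 and pandas 2.3.3.

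The labels number the replicates of the MYB set. The difference of number 2 minus number 1 within a group was correlated between groups, for all 6 pairs of groups. It reached 0.326 to 0.438 across all genes and 0.469 to 0.853 across the subunits and cytochrome c. The numbers were therefore taken to pair the samples. The main fits leave the number out, so their counts and p-values ignore this pairing. The fit with the replicate block is given where it changes a count by over 1.5 times or ends a call.

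The members and all gene lists were chosen with earlier results of these data known. Named were MYB, TCF7, and a list of catalytic, electron-carrying and other core members, with COX5A and COX5B. Also named were up to 10 members past the threshold with the largest changes in each comparison, and per complex the lowest and highest change with siMYB over both lines. Of these, 1 member is not reported by name here. Positions are from GENCODE on GRCh38 and promoters from RefSeq on GRCh38.p14.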

Additional observations from a re-analysis of the deposited data

Results flagged for a closer look

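For 5 members the effect of siMYB differed between the lines by limma's test of the difference itself (YCC10 effect minus SNU719 effect, adjusted p under 0.05): SDHA at 0.6059, SDHC at 0.5533, UQCRC2 at 0.4357, ATP5F1B at 0.3158 and SDHB at 0.2348 on the log2 scale. Among all genes tested, 8.65% were higher and 10.3% lower, so members were called less often than all genes. SDHA and SDHC kept that call with each of the 8 libraries left out. UQCRC2 kept it in 5 of 8, and ATP5F1B and SDHB in 0 of 8.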

How the results depend on the processing

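With the replicate block, member counts rose beside those of all genes, here first with a term per pair and then with 1 shared number term. In SNU719 33 and 37 members were lower and 2 and 1 higher with siMYB. In YCC10 21 and 17 were lower and 20 and 19 higher. In the line difference 4 and 4 were lower and 23 and 24 higher. With siTCF7 12 and 14 were lower and 4 and 4 higher, and siMYB against sgMYB-E3 gave 8 and 8 lower. For siMYB against siTCF7 6 and 10 were lower and 3 and 5 higher. Over both lines the shared term gave 3 higher. For the control libraries, only the shared term could be fitted. The shares of all genes with the shared term are not given, so the counts with it stand without a background. The term per pair ended the calls of UQCRC2, COX5A and NDUFB5 over both lines and that of MYB in siMYB against siTCF7, and neither form of the block ended another named call. It added 18 calls of a named gene in a comparison with the term per pair and 25 with the shared term.

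With median-of-ratios scaling, 3 members were lower and 16 higher in YCC10, 11 higher in the line difference, 3 lower and 7 higher over both lines, 3 lower in siMYB against sgMYB-E3 and 6 higher in siMYB against siTCF7. With quantile normalization, 8 were lower and 1 higher in SNU719, 4 lower and 15 higher in YCC10, 8 higher in the line difference, 4 lower and 4 higher over both lines, 4 lower with siTCF7 and 1 lower in siMYB against sgMYB-E3. Without an intensity trend, 3 were higher in the line difference. The shares of all genes under these settings are not given, so these member counts stand without a background. The cause of these moves was not tested.

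With 1 library left out, lower and higher counts were 5 to 8 and 0 in SNU719, 3 to 5 and 2 to 4 in YCC10, 0 and 2 to 4 in the line difference, 5 to 10 and 0 to 2 over both lines, 1 to 8 and 0 to 6 with siTCF7, 0 and 0 with sgMYB-E3, 0 to 6 and 0 to 1 in siMYB against sgMYB-E3, 3 to 9 and 1 to 5 in siMYB against siTCF7, and 6 to 8 and 42 to 47 between control lines. The shares of all genes that passed moved as well, so these ranges are no result about the members. Leaving out 1 of 2 libraries assumes that the other varies like the remaining groups. The fits using only pairs numbered 1 or 2, added after seeing the data, give values without a test. No value of a named member past the threshold reversed under any setting. Depth is unknown, so what it limits cannot be given.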
